A study of Mus musculus with 8 samples.

Results

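The genes described here are 9 genes of peroxisomal fatty acid oxidation and of acyl-CoA hydrolysis, measured in livers of mice heterozygous for eIF2α and of wild-type mice. They were chosen by symbol (Acaa1a, Acaa1b, Acox2, Ehhadh, Hsd17b4, Acot1, Acot3, Acot4 and Abcd3), and all 9 were found among the 56077 genes and loci of the deposited table and passed the filter on low counts, as did 14261 in all. The heterozygous group (Eif2a flox/+ in the genotype label, eIF2α flox/+ in the titles) has 4 livers, and the wild-type group has 4. The labels name no recombinase, so they do not say in which cells the floxed allele was recombined, and no other allele or agent is given for either group. All mice were lean C57BL/6 animals 6 months of age, fed ad libitum and killed in the fed state in the morning, and the growth protocol calls the animals of both groups wild-type. Liver RNA depleted of ribosomal RNA was sequenced. Libraries bear the names of the table's columns, H11, H12, H15 and H75 for heterozygous livers and W32, W33, W76 and W90 for wild-type ones. No label says whether mice shared litters. The p-values set the genotype difference against the spread among livers of a group, and they take the livers as independent.

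Peroxisomes shorten fatty acids that mitochondria handle poorly, such as very long-chain, branched-chain and dicarboxylic acids, and the side chains of bile acid precursors. Abcd3, an ABC transporter of the peroxisomal membrane, carries acyl-CoA esters in. An acyl-CoA oxidase, a bifunctional hydratase-dehydrogenase and a thiolase then act in turn in each cycle. Acyl-CoA thioesterases release the free fatty acid from coenzyme A. In rodent liver many of these genes are induced by PPARα, a nuclear receptor activated by fatty acids.

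The libraries held 22178028 to 28564400 counts in heterozygous and 25626387 to 27799116 in wild-type livers. Eif2s1, the gene of eIF2α, had 20.5, 22.3, 20.8 and 25.1 CPM (counts scaled to library size) in H11, H12, H15 and H75, against 28.4, 28.8, 32.8 and 30.1 CPM in W32, W33, W76 and W90. The groups did not overlap, and heterozygous livers averaged 73.8% of the wild-type level (edgeR's quasi-likelihood test, adjusted p = 0.315 over all genes). Hepatocyte markers (7 of 7 tested) summed to 89280 to 99230 CPM in heterozygous and 78080 to 104900 CPM in wild-type livers. Most of that sum was Alb, with 67127 to 76760 CPM and 58999 to 82290 CPM. By fold change 6 of the 7 were higher and 1 lower, with a median log2 fold change of 0.18. Hnf4a had 538 to 715 CPM in heterozygous and 495 to 537 CPM in wild-type livers, without overlap (edgeR adjusted p = 0.458). H15 differed from the other heterozygous libraries in several lists, of which fatty acid synthesis and the acute phase are given here. The 17 fatty acid synthesis genes summed to 31440 CPM in H15, to 6866 to 9429 CPM in H11, H12 and H75, and to 27890 to 38620 CPM in wild-type livers. Most of that sum was Scd1, with 23289 CPM in H15, 3797 to 5809 CPM in H11, H12 and H75, and 21041 to 29939 CPM in wild-type livers. In 2 of the 17 genes, Elovl5 and Pklr, every heterozygous library, H15 included, lay below all wild-type libraries, as in 2.32% of all genes. The 23 acute phase genes summed to 17550 CPM in H15, to 23980 to 33970 CPM in H11, H12 and H75, and to 15350 to 18450 CPM in wild-type livers.

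Across the 9 genes, 2 lay lower in every heterozygous library than in any wild-type library, namely the thiolase gene Acaa1b and the transporter gene Abcd3. The other 7 overlapped between the genotypes. None of the 9 passed an adjusted p of 0.05 over all 14261 genes with edgeR, where 0% of genes were called. Acaa1b and Abcd3 had an unadjusted p under 0.05, as did 4.44% of all genes in the same direction. Non-overlapping groups with lower heterozygous values were seen in 2.32% of all genes. DESeq2 called 1 of the 9, Acaa1b, as lower, where it called 1.07% of all genes and 0.428% as lower. The limma-voom fit called 0 of the 9 and 0% of all genes, and edgeR without W32 called 0 of the 9 and 0.0138% of all genes. The fold change was negative for 7 of the 9 genes, as for 48.9% of all genes, and the median log2 fold change of the 9 was -0.24, against 0.0051 over all genes tested. That median is the value of Ehhadh, which was again the middle value without W32, at -0.034. In log2 CPM minus the wild-type mean, the median of the 9 was -0.032 in H11, against -0.094 in W33 and -0.14 in W90. In bulk liver, fewer cells of a type and less RNA per cell cannot be told apart.

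**Figure D1:**
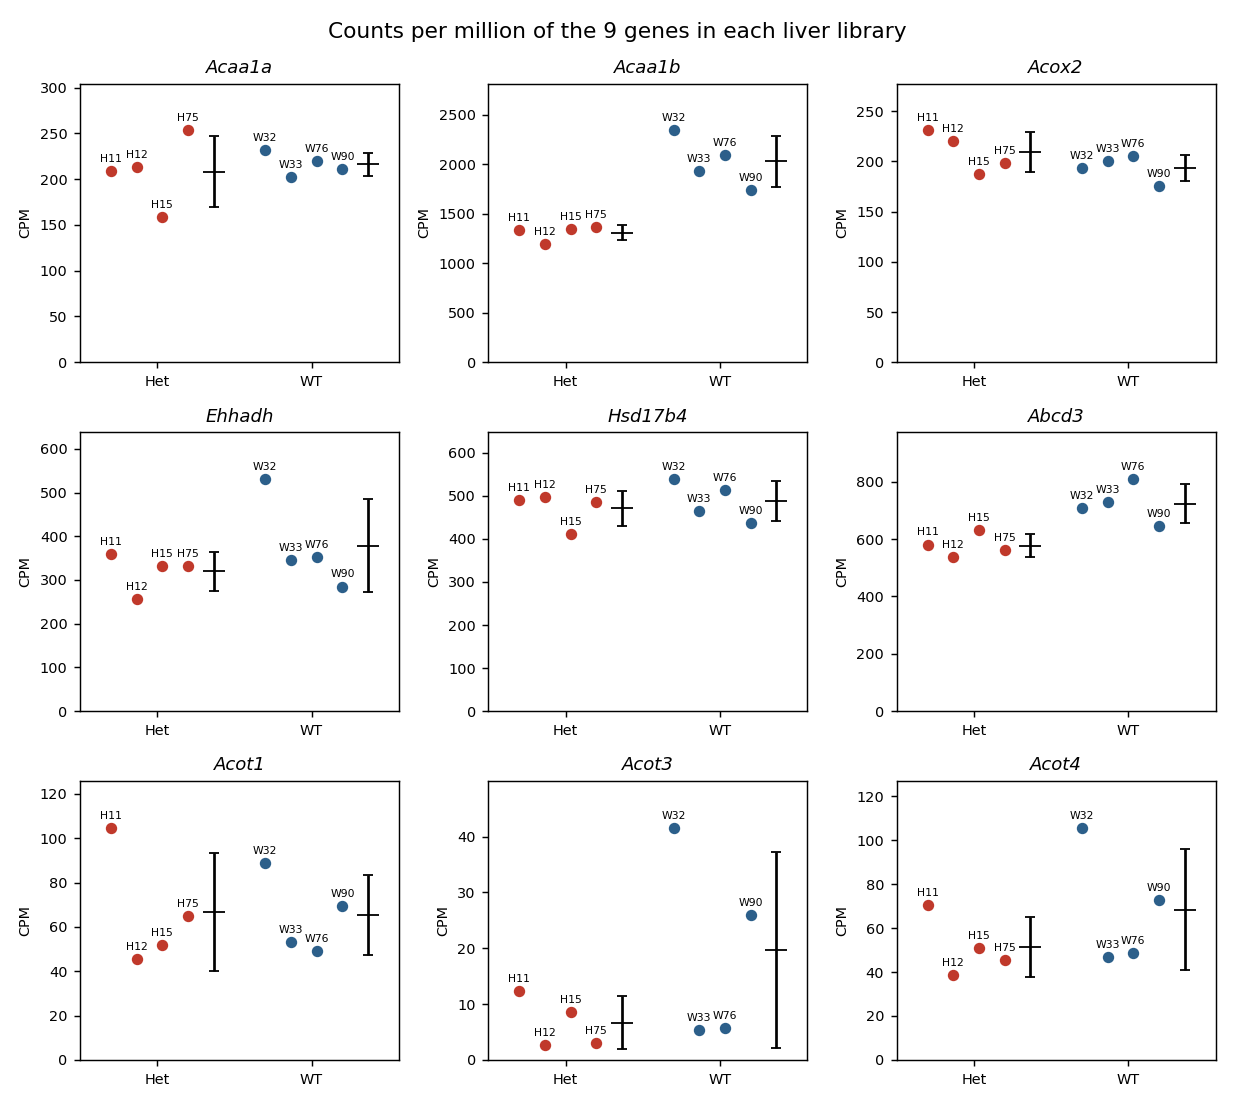
CPM of each of the 9 genes (y axis, linear from 0) in the 4 heterozygous (Het, red, left) and 4 wild-type (WT, blue, right) libraries, with the mean and SD of each group in black. Acaa1b and Abcd3 are the 2 genes whose groups do not overlap, and Acot3 is spread from 5.40 to 41.6 CPM within the wild-type group alone.

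Acaa1a and Acaa1b encode the peroxisomal 3-ketoacyl-CoA thiolases A and B, which cleave acetyl-CoA from the shortened chain in the last step of each cycle. Acaa1b had 1332, 1193, 1349 and 1365 CPM in H11, H12, H15 and H75, against 2347, 1933, 2099 and 1742 CPM in W32, W33, W76 and W90. The heterozygous libraries lay close together, and the lowest wild-type library was 1.28-fold above the highest heterozygous library. Acaa1b averaged 1309.5 ± 78.9 CPM in heterozygous and 2030.1 ± 257 CPM in wild-type livers (SD, n = 4 each). Heterozygous livers thus held 64.5% of the wild-type level, and the log2 fold change was -0.63 (SE 0.12). The gene did not pass over all genes with edgeR (adjusted p = 0.218) and passed with DESeq2 (adjusted p = 3.38e-05). In the authors' deposited table its log2 fold change was -0.63 and its adjusted p 4.13e-05, and that table does not mark it as significant. When H15 was left out, Acaa1b passed with edgeR at an adjusted p of 0.0405 and a log2 fold change of -0.65. Its unadjusted p with edgeR was higher in that fit, 0.000555 against 0.000275 with all libraries. The fit without H15 called 252 genes, 1.74% of those tested, and 0.889% as lower. H15 itself had 1349 CPM of Acaa1b, inside the range of the other heterozygous libraries, while its summed fatty acid synthesis genes lay inside the wild-type range.

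The paralogue Acaa1a did not show this difference. Acaa1a had 208, 213, 158 and 254 CPM in H11, H12, H15 and H75, against 232, 202, 219.6 and 211 CPM in W32, W33, W76 and W90. Heterozygous libraries lay on both sides of the wild-type range, with H15 lowest and H75 highest of all 8. Its log2 fold change was -0.053 (SE 0.13, edgeR adjusted p = 0.929) and turned to 0.058 without H15. Acaa1b made up 86.5, 84.8, 89.5 and 84.3% of the summed counts of the pair in H11, H12, H15 and H75, against 91.0, 90.5, 90.5 and 89.2% in W32, W33, W76 and W90. The share in H15 lay inside the wild-type range and the other 3 heterozygous shares lay below it.

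Reads of the 2 thiolase genes can be shared. Over 1272 aligned coding bases of the GENCODE transcripts, 1228 were identical (96.5%). Of all stretches of 50 bases in the Acaa1b transcript, 35.5% occur unchanged in Acaa1a transcripts, and of stretches of 150 bases 13.3% do. The first 90 coding bases show how few positions can tell the transcripts apart. They are given 5′ to 3′ for the gene's coding strand, and capitals mark the 3 bases at which the copies differ:
Acaa1a: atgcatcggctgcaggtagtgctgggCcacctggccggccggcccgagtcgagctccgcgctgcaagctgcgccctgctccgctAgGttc
Acaa1b: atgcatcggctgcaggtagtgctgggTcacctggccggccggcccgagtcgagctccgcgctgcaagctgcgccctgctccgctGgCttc
With the counts of the pair summed into 1 feature, the log2 fold change was -0.57 (SE 0.11, edgeR adjusted p = 0.267). The summed level was 1540.0, 1406, 1507 and 1618 CPM in H11, H12, H15 and H75, against 2578, 2135, 2319 and 1953 CPM in W32, W33, W76 and W90. The sum does not depend on how shared reads were split, and its groups did not overlap either.

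The genes are neighbours on chromosome 9 of GRCm38. Acaa1b (ENSMUSG00000010651) lies on the minus strand from 119148023 to 119157093, and Acaa1a (ENSMUSG00000036138) on the plus strand from 119339676 to 119350299, 182.6 kb away. Exons of Acaa1b overlap Dlec1 on the other strand, and exons of Acaa1a overlap Myd88. The sources used here do not say whether reads were counted by strand. Dlec1 had 0.127 to 0.723 CPM in heterozygous and 0.393 to 1.08 CPM in wild-type livers, and Myd88 13.9 to 19.7 CPM and 12.7 to 14.5 CPM.

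The windows around the RefSeq starts of the thiolase pair follow. Each runs from 250 bases before to 50 bases after the start (RefSeq, GRCm38.p6) and is shown because the genes differ in fold change:
Acaa1b, chr9:119157044-119157343, minus strand: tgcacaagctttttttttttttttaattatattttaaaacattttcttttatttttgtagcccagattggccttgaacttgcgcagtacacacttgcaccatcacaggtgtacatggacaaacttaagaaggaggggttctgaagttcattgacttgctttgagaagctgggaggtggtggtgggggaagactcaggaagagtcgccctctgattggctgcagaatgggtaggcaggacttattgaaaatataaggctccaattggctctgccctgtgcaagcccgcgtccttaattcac
Acaa1a, chr9:119341044-119341343, plus strand: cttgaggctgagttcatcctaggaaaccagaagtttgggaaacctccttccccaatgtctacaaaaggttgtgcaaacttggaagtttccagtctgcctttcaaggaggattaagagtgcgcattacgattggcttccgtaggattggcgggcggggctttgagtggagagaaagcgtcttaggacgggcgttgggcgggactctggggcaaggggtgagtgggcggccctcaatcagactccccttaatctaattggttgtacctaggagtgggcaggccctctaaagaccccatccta
PPARα binds DNA with its partner RXR at direct repeats of a hexamer spaced by 1 base. Neither window holds the hexamer AGGTCA on either strand, so no capitals appear in them, and neither holds the spaced repeat searched as AGGNCANAGGNCA. Of 32851 RefSeq windows of the same length that were searched, 16.3% hold the hexamer and 0.381% the spaced repeat. The searched repeat also accepts hexamers with another base in its N positions, so the 2 motifs overlap.

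Abcd3, also known as PMP70, imports long-chain, branched-chain and bile acid intermediate CoA esters. It had 581, 536, 630.1 and 562 CPM in H11, H12, H15 and H75, against 709, 729, 809.9 and 645 CPM in W32, W33, W76 and W90. The groups did not overlap, but the margin was small, since the lowest wild-type library (W90) was 1.02-fold above the highest heterozygous library (H15). Abcd3 averaged 577 ± 39.6 CPM in heterozygous and 723 ± 68.2 CPM in wild-type livers (SD, n = 4 each). Its log2 fold change of -0.32 (SE 0.10) did not pass over all genes with edgeR (adjusted p = 0.406) or with DESeq2 (adjusted p = 0.0907). Abcd3 (ENSMUSG00000028127) lies on the minus strand of chromosome 3 from 121758774 to 121815302, and no stretch of 50 bases of its transcript occurs in a transcript of another gene.

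The oxidase and the bifunctional enzymes, which precede the thiolase, overlapped between the genotypes. Acox2, the acyl-CoA oxidase of bile acid intermediates, had 231, 219.9, 188 and 199 CPM in H11, H12, H15 and H75, against 193, 201, 205 and 176 CPM in W32, W33, W76 and W90. H11 and H12 lay above and H15 and H75 within the wild-type range. Acox2 had a log2 fold change of 0.11 (SE 0.096, edgeR adjusted p = 0.745).

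Hsd17b4, the D-bifunctional protein, which serves branched chains and bile acid intermediates, had 489.8, 497, 412 and 485 CPM in H11, H12, H15 and H75. It had 539.7, 464, 513 and 437 CPM in W32, W33, W76 and W90. H15 was the lowest of all 8 libraries and the other heterozygous libraries lay within the wild-type range. Hsd17b4 had a log2 fold change of -0.052 (SE 0.10, edgeR adjusted p = 0.906), which was 0.0072 without H15.

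Ehhadh, the L-bifunctional protein, which acts on long straight chains and dicarboxylic acids, had 360.3, 256, 332 and 332 CPM in H11, H12, H15 and H75. It had 531, 345, 353 and 285 CPM in W32, W33, W76 and W90. W32 was far above all others, and the remaining libraries of the genotypes were interleaved. The log2 fold change was -0.24 (SE 0.19, edgeR adjusted p = 0.715) with all libraries and -0.034 without W32.

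**Figure D2:**
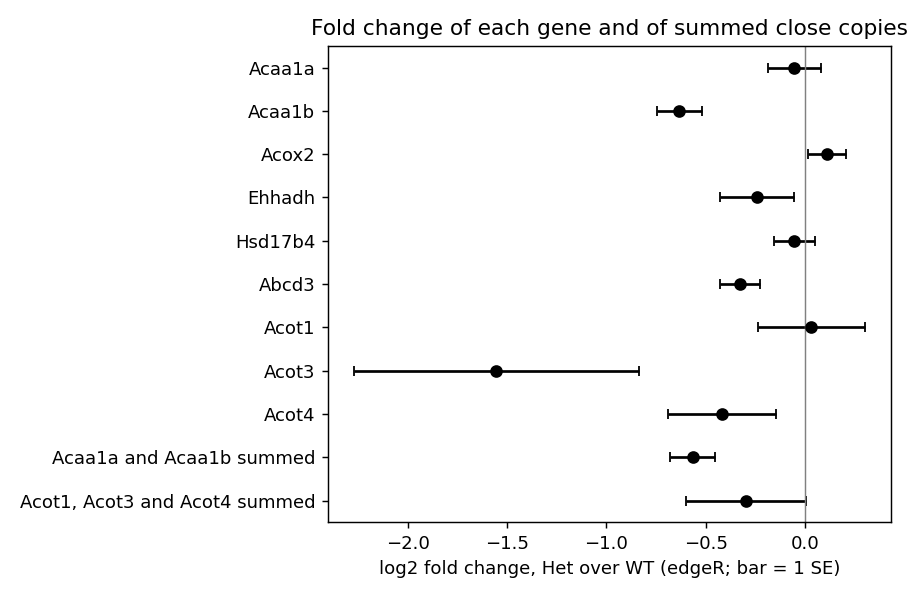
Log2 fold change of heterozygous over wild-type livers (x axis) for each of the 9 genes and for the sums of close copies, with bars of 1 SE from edgeR. The bar of Acot3 (SE 0.72) is far wider than that of Abcd3 (SE 0.10), and the summed thiolases lie at -0.57.

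The 3 thioesterase genes overlapped between the genotypes and varied widely within each. Their coefficients of variation were 26.7 to 70.7% in heterozygous livers, against at most 18.8% for the other members, and 27.7 to 89.1% in wild-type livers, where Ehhadh reached 28.1%. Acot1 encodes the cytosolic long-chain acyl-CoA thioesterase, and Acot3 and Acot4 encode peroxisomal thioesterases, of which mouse Acot4 also acts on succinyl-CoA. Acot1 had 105, 45.5, 51.6 and 64.8 CPM in H11, H12, H15 and H75, against 88.8, 53.2, 49.1 and 69.6 CPM in W32, W33, W76 and W90. H11 was the highest library of all 8 and H12 the lowest, so the heterozygous range enclosed the wild-type range. The log2 fold change was 0.033 (SE 0.27, edgeR adjusted p = 0.982). It was negative with library totals alone as scaling (-0.048) and with limma-voom (-0.0047), and -0.27 without H11.

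Acot4 had 70.4, 38.7, 50.8 and 45.3 CPM in H11, H12, H15 and H75, against 106, 46.7, 48.6 and 72.7 CPM in W32, W33, W76 and W90. W32 stood highest, and W33 and W76 were among the heterozygous values. The log2 fold change was -0.41 (SE 0.27, edgeR adjusted p = 0.668) with all libraries and -0.12 without W32.

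Acot3 had the lowest level and the widest spread. It had 12.4, 2.58, 8.62 and 3.05 CPM in H11, H12, H15 and H75, against 41.6, 5.40, 5.67 and 26.0 CPM in W32, W33, W76 and W90. The highest library exceeded the lowest 4.81-fold within heterozygous and 7.71-fold within wild-type livers, on 60.7 to 1221 counts per library. Acot3 averaged 6.67 ± 4.71 CPM in heterozygous and 19.7 ± 17.5 CPM in wild-type livers (SD, n = 4 each). Its log2 fold change of -1.56 (SE 0.72) did not pass with edgeR (adjusted p = 0.546). Without W32 it was -0.88 and without H11 -2.05.

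The thioesterases shared an order of libraries that crossed the genotypes. In all 3 genes W32 and W90 were the 2 highest wild-type libraries, H11 was the highest heterozygous library and H12 the lowest. The summed level was 188, 86.8, 111 and 113 CPM in H11, H12, H15 and H75, against 236, 105, 103 and 168 CPM in W32, W33, W76 and W90. For the sum as 1 feature the log2 fold change was -0.30 (SE 0.30, edgeR adjusted p = 0.788). Ehhadh also had its highest value of each genotype in W32 and H11, and its lowest heterozygous value in H12, but W90 was its lowest wild-type library.

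**Figure D3:**
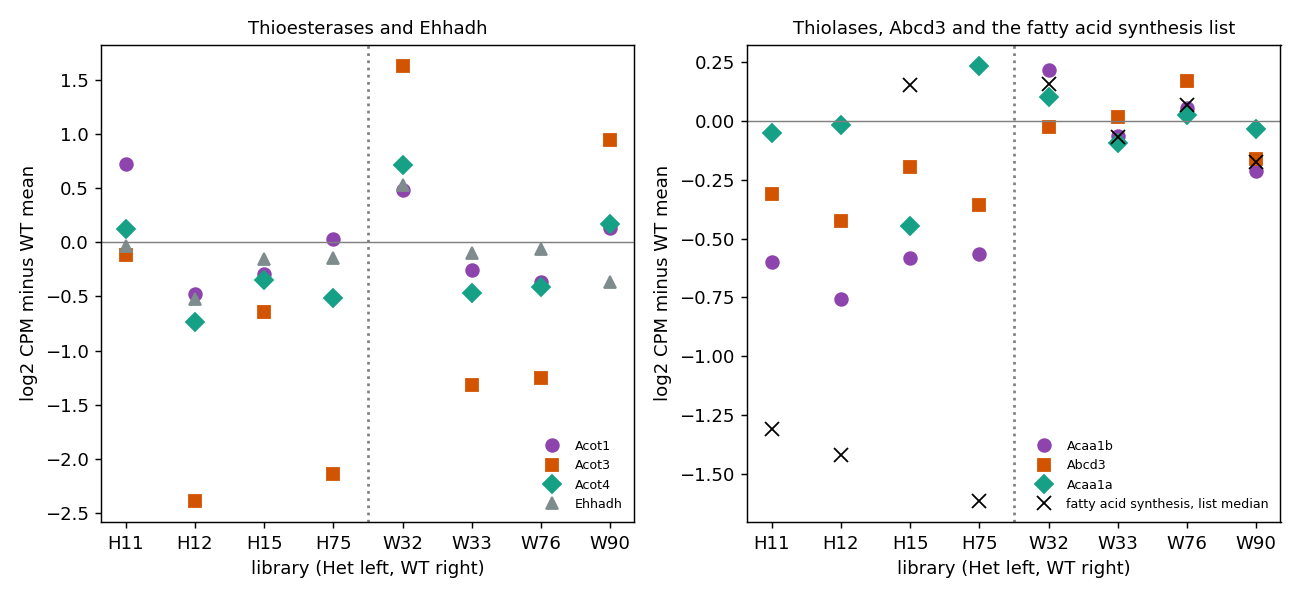
Log2 CPM of each gene minus its wild-type mean (y axis) in each library (x axis, Het left and WT right of the dotted line), for the thioesterases with Ehhadh (left panel) and for the thiolases, Abcd3 and the median of the fatty acid synthesis list (right panel, cross; log2 of CPM plus 0.5 for the list). Acot3 runs from -2.39 in H12 to 1.63 in W32, while Acaa1b lies between -0.76 and -0.56 in all heterozygous libraries, H15 included, where the list median is 0.15.

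The thioesterase genes stand in a cluster on chromosome 12, all on the plus strand of GRCm38. Acot1 (ENSMUSG00000072949) runs from 84009490 to 84018371, Acot4 (ENSMUSG00000052392) from 84038379 to 84048601 and Acot3 (ENSMUSG00000021228) from 84052144 to 84060402. Eif2s1 lies on the same chromosome, from 78861819 to 78887010, so that the 3 genes start 5.12 to 5.17 Mb beyond its end. Among 167 tested genes within 10 Mb of Eif2s1, 5 were lower and 6 higher at an unadjusted p under 0.05 (6.59%, against 9.34% of all genes tested). Groups did not overlap in 10 of them (5.99%, against 4.38%), 52.1% had a negative fold change (against 48.9%), and their median log2 fold change was -0.013. Cluster neighbours are named here outside the rule for named genes. Acot2, the mitochondrial thioesterase, had 9.32, 3.54, 3.36 and 5.35 CPM in H11, H12, H15 and H75, against 11.6, 5.50, 5.63 and 8.02 CPM in W32, W33, W76 and W90. It too was highest in W32 and W90 among wild-type and in H11 among heterozygous libraries. Acot5 reached at most 0.0681 CPM in any library.

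Copies in this cluster can share reads as well. The coding sequences of Acot1 and Acot2 were 95.6% identical, those of Acot1 and Acot3 84.0% and those of Acot3 and Acot4 75.3%. Of stretches of 50 bases, 33.2% of the Acot1 transcript, 19.5% of the Acot3 transcript and 4.87% of the Acot4 transcript occur in transcripts of other genes. Exons of Acot3 and Acot4 overlap Gm49366 on the same strand and 4732463B04Rik on the other strand. Gm49366 had 0 to 0.314 CPM in heterozygous and 0 to 0.995 CPM in wild-type livers, and 4732463B04Rik 1.12 to 3.97 CPM and 1.27 to 4.22 CPM.

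RefSeq start windows were searched for 8 of the 9 genes, and that of Hsd17b4 was not used here. The hexamer AGGTCA occurs in those of 2 genes, Acot3 and Acot4, beside 16.3% of all windows searched, and Abcd3, Acox2 and Acot3 had more than 1 window. Acot1, which shares the order of libraries with Acot3 and Acot4, has no hexamer in its window. The spaced repeat AGGNCANAGGNCA occurs in 0 of the 8. Only its N positions could differ in the search, so imperfect repeats were not counted. The 2 windows with the hexamer are shown (250 bases before to 50 after the start, RefSeq, GRCm38.p6) because they hold it. A further Acot3 window, which overlaps the one printed, holds it too. Capitals mark the hexamer, which reads as its reverse complement here because it lies on the other strand:
Acot3, chr12:84051894-84052193, plus strand: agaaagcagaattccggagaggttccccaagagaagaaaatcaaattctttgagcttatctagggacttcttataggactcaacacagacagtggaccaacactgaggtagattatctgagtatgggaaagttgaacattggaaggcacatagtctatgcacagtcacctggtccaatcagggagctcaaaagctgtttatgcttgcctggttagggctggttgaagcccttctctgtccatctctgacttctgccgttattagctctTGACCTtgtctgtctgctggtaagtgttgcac
Acot4, chr12:84038129-84038428, plus strand: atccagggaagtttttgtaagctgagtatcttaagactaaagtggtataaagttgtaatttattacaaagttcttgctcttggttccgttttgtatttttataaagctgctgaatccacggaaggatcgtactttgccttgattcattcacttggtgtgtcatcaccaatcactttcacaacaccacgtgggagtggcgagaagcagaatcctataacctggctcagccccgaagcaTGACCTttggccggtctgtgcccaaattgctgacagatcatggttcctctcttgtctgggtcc
The hexamer begins at position 19 after the start in the Acot3 window and at position -13 before it in the Acot4 window. A match of letters describes the window and is not a measured binding site.

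Per kilobase of gene length, as the deposited comparison table gives it, Acaa1b was the most abundant of the 9 transcripts. Its level averaged 775 ± 46.7 CPM per kb in heterozygous and 1202 ± 152 CPM per kb in wild-type livers (SD, n = 4 each), above all other members in every library. In wild-type livers Abcd3 (207), Hsd17b4 (182), Ehhadh (127) and Acaa1a (123 CPM per kb) came next, and each overlapped the next of these in its range over libraries. In heterozygous livers Hsd17b4 (176) came before Abcd3 (166), Acaa1a (118) and Ehhadh (107 CPM per kb), and the first 2 and the last 2 of these overlapped. Acox2 averaged 72.0 CPM per kb in heterozygous and 66.6 CPM per kb in wild-type livers. The thioesterases came last, Acot1 with 29.3 and 28.7, Acot4 with 8.27 and 11.03 and Acot3 with 1.94 and 5.73 CPM per kb in heterozygous and wild-type livers. Only Acot4 and Acot3 overlapped among the thioesterases, and only in wild-type livers. All 9 together took 0.345, 0.273, 0.337 and 0.298% of the library's counts in H11, H12, H15 and H75, against 0.506, 0.412, 0.430 and 0.378% in W32, W33, W76 and W90, before TMM scaling. Acaa1b was the largest contributor in every library.

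The other genes of the pathway were read from lists, and edgeR called 0 genes of each list over all genes. Counts at an unadjusted p under 0.05 are to be read against 4.44% lower and 4.9% higher among all genes. Of 9 other genes of peroxisomal β-oxidation 8 were tested, 0 had an unadjusted p under 0.05, and the median log2 fold change was 0.058. The 4 of lowest p were Eci2, an enoyl-CoA isomerase (0.34), the racemase Amacr (0.17), the enoyl-CoA reductase Pecr (0.12) and the oxidase Acox3 (0.11).

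A list for peroxisomal transport and carnitine transfer held 11 genes, of which Pmp22, a myelin protein, and Abcd4, a lysosomal transporter, do not belong to peroxisomes. Of the other 9, all tested, 2 were lower at an unadjusted p under 0.05, and the median was 0.027 with or without those 2 genes. Crat, the carnitine acetyltransferase, averaged 43.4 ± 11.1 CPM in heterozygous and 65.4 ± 12.2 CPM in wild-type livers (SD, n = 4 each). Abcd2, a transporter of very long-chain acyl-CoA, averaged 4.04 ± 5.13 and 15.7 ± 9.49 CPM. It was at 3.13, 0.154, 11.5 and 1.35 CPM in H11, H12, H15 and H75, against 26.6, 13.0, 4.12 and 18.8 CPM in W32, W33, W76 and W90. The groups of both genes overlapped. The membrane protein Pxmp2 had a log2 fold change of 0.24.

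Of 13 other thioesterases and CoA hydrolases 11 were tested, 1 was higher at an unadjusted p under 0.05 and the median was -0.025. That was Nudt7, a peroxisomal CoA diphosphatase, with 279 ± 44.9 CPM in heterozygous and 210.5 ± 50.7 CPM in wild-type livers (SD, n = 4 each). Acot13 (log2 fold change -0.22), Acot6 (-0.52) and Acot11 (-0.60) followed by p, and Acot6, at 0.450 to 0.723 CPM in heterozygous and 0.794 to 1.08 CPM in wild-type livers, was low throughout, and its groups did not overlap. A list for α-oxidation and ether lipids held 7 genes, of which Cat, the catalase gene, belongs to neither pathway. Among the 7, 1 was lower at an unadjusted p under 0.05. This was Aldh3a2, the fatty aldehyde dehydrogenase, which had 328, 237, 318 and 266 CPM in H11, H12, H15 and H75, against 542, 363, 428 and 335 CPM in W32, W33, W76 and W90, with no overlap. Phyh, the phytanoyl-CoA hydroxylase, had a log2 fold change of 0.31, Gnpat of -0.12 and Far1 of -0.31. The median of the list was -0.12.

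The 16 peroxins, which build peroxisomes and import their proteins, had a median of -0.050, with 2 genes lower at an unadjusted p under 0.05. Pex5, the import receptor for the C-terminal signal that most peroxisomal enzymes carry, averaged 101 ± 4.80 CPM in heterozygous and 116 ± 4.56 CPM in wild-type livers (SD, n = 4 each), without overlap. Pex7, the import receptor for the N-terminal signal carried by thiolases, averaged 54.6 ± 0.733 and 60.7 ± 2.94 CPM, also without overlap, and missed an unadjusted p of 0.05. Pex11a, which promotes peroxisome division, had a log2 fold change of -0.29. Mitochondrial β-oxidation, with 12 genes tested, had a median of 0.011 and 0 genes at an unadjusted p under 0.05. Its lowest p values were those of Cpt2 (0.20), Hadh (-0.15), Etfb (0.22) and Eci1 (-0.10). Cyp27a1 and Slc27a5, which act before and after peroxisomal shortening of the bile acid side chain, had log2 fold changes of 0.066 and 0.053.

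For PPARα and 8 partner genes the median was 0.056, and 2 had an unadjusted p under 0.05. Creb3l3, a membrane-bound transcription factor of liver, had a log2 fold change of 0.42, and Ppargc1a, a coactivator, of -0.63. Rxra and Med1 followed with 0.11 and 0.10. The PPARα targets outside the peroxisome went in both directions. The median of 22 tested genes was -0.019, and 7 had an unadjusted p under 0.05, of which 4 were lower. Those of lowest p were Fitm1, which forms lipid droplets (-0.61), the pantetheinase Vnn1 (-0.87), the fatty acid transporter Cd36 (-1.20) and the monoglyceride lipase Mgll (-0.44). Groups overlapped in all 4. The 3 higher genes, named after their values were seen, were Cyp4a32 (0.98), Angptl4 (0.60) and Cyp4a31 (1.19).

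**Figure D4:**
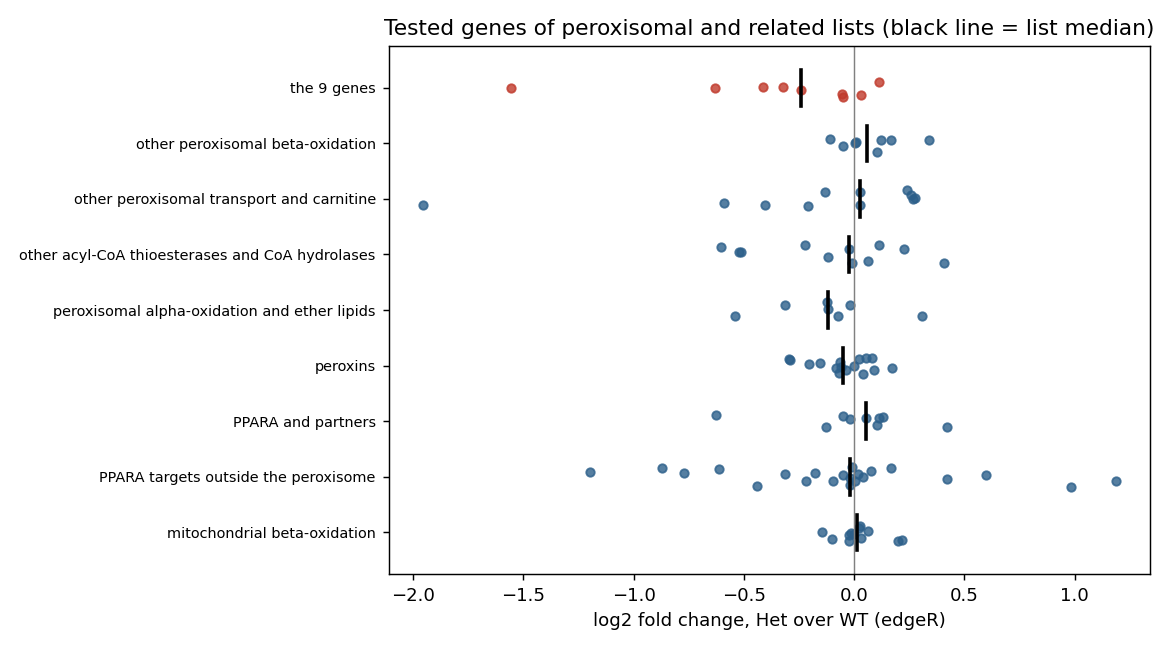
Log2 fold change of heterozygous over wild-type livers (x axis, edgeR) for every tested gene of the 9 genes described here (red) and of related lists (blue), 1 point a gene, with the list median as a black line. The medians of the related lists plotted lie between -0.12 and 0.058 and that of the 9 genes at -0.24, and no point passed edgeR's test over all genes.

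Markers of other liver cells were set beside these values. Brackets give how many markers of a list were tested, and each sum covers all markers of the list, untested ones included. Summed Kupffer cell markers (9 of 9 tested) were 122 to 269 CPM in heterozygous and 119 to 278 CPM in wild-type livers, and endothelial markers (8 of 8) 193 to 289 CPM and 174 to 239 CPM. Stellate cell markers (7 of 7) were 111 to 275 CPM and 195 to 242 CPM, biliary markers (5 of 6) 41.0 to 102 CPM and 34.2 to 87.7 CPM, and lymphocyte markers (1 of 6) 0.886 to 2.17 CPM and 0.832 to 2.46 CPM. By fold change 9 of 9 Kupffer cell, 7 of 8 endothelial and 5 of 5 tested biliary markers were higher in heterozygous livers. Their median log2 fold changes were 0.18, 0.16 and 0.33. Of the 7 stellate cell markers 2 were higher and 5 lower, with a median of -0.10. Neutrophil markers (2 of 6) summed to 0.467 CPM in H15 and, in H11, H12 and H75, to 3.15 to 4.35 CPM, against 0.348 to 0.889 CPM in wild-type livers. Adipocyte markers (2 of 6) were 3.10 to 7.74 CPM in heterozygous and 11.2 to 20.2 CPM in wild-type livers, lower in heterozygous livers as were Acaa1b and Abcd3. Within the heterozygous group the adipocyte sum was highest in H12, where Acaa1b and Abcd3 were lowest. Within the wild-type group it was highest in W76, as was Abcd3, while Acaa1b was highest in W32. The adipocyte sum was nearly all Cidec and Cfd. Cidec had 2.29 to 6.97 CPM in heterozygous and 6.11 to 13.0 CPM in wild-type livers, with overlap. Cfd had 0.602 to 0.900 CPM and 2.38 to 9.78 CPM, without overlap. Retn, too low to be tested, had 0 to 0.0401 CPM and 0.113 to 0.462 CPM, also without overlap. Adipoq reached at most 0.0849 CPM, Plin1 at most 0.0714 CPM and Lep was at 0 in all libraries. The part of these markers in the Acaa1b and Abcd3 results was not tested.

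Likeness to other genes was measured over the 8 libraries as the root mean square difference of log2 CPM, each gene centred on its own mean, among 8790 other genes. For Acaa1b the nearest were Slc25a10 (0.112), Snhg11 (0.116) and Ces2e (0.116), against a root mean square of 0.337 for Acaa1b itself. Abcd3 was 39th by likeness to Acaa1b, and Ehhadh 490th. For Abcd3 the nearest were Mzt1 (0.0407), Pde3b (0.0591) and Slc23a1 (0.0620). For Acot4 they were Prlr (0.174), Pdk4 (0.177) and Mtm1 (0.260), and for Acot1 they were Nr1i3 (0.179), Axl (0.185) and F8 (0.208). Acot4 ranked 17th by likeness to Acot1 and 10th to Acot3. Acot3 itself had no close match, its nearest being Slc16a5 (0.718), Nipal1 (0.772) and Nt5e (0.826) with 1.33 for its own spread. Ehhadh was nearest to Exoc4 (0.0823), Xdh (0.106) and Mtm1 (0.119). Acaa1a, Acox2 and Hsd17b4 varied little, by 0.183, 0.117 and 0.118, and were nearest to Ppm1m, Ppp2r3c and Mcts1, to Zfp777, Rab3gap2 and Ddi2, and to Zfp874a, Vps37a and Ipo7, at 0.0398 to 0.0703. The group difference is part of this measure, so genes that differ between the genotypes lie nearer to others that do.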

How the data were processed

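The authors' count table, deposited as estimated counts per gene that are not normalized, holds fractions as well as whole numbers. Of a library's values above 0, 70.8 to 72.9% are whole within 1e-09. The submitters' processing notes list mm10 as the build and, with no roles, SAMtools 1.9, GATK 3.8, Bowtie2 2.2.9 and fastp 0.19.5. No source used here names the counting program or says whether strand was used. Unannotated loci took 0.431 to 0.977% of counts. The authors' deposited comparison table gives gene length, p-values with their adjusted form, and the change as a ratio and on the log2 scale, per the file headers.

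Columns were grouped by their first letter and carry no replicate number. Estimated counts were rounded, filtered with filterByExpr, scaled by TMM, with factors of 0.900 to 1.06, then tested with edgeR 4.0.16 (legacy quasi-likelihood) in R 4.3.3 with genotype as the only term and Benjamini-Hochberg adjustment over 14261 genes. CPM use TMM-scaled library sizes. The SE is the log2 fold change divided by the square root of F. DESeq2 1.42.0 and limma 3.58.1 (voom), other scalings, filters and thresholds, summed close copies and leaving out each library were alternatives. The fitting code was tested on simulated data.

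The members and lists were chosen with earlier results of these data known. Named genes are the 9 members, Eif2s1, up to 4 genes of lowest p per related list, and the 3 most alike genes per member with a mean of at least 5 CPM and a named symbol, predicted models left out. Others are marked. Some genes of these lists are not reported here by name and stay in the lists' counts and medians. List medians per library use a pseudocount of 0.5 CPM. Positions and transcripts come from GENCODE release M21 on GRCm38, which mm10 denotes. Start windows of chromosome 18 were not used. Transcript comparisons used the longest protein-coding transcript and Biopython 1.88.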

Additional observations from a re-analysis of the deposited data

Results flagged for a closer look

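Among 28 sets of 4 libraries examined, of which chance flags about 1 in 20, a single library stood far from the rest of its group. Hsd17b4 was at 412 CPM in H15, against 485 CPM in the nearest of the other heterozygous libraries, a gap of 0.856 of the range of that group.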

How the results depend on the processing

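The count of genes called by edgeR, 0 of 14261, was 152 with DESeq2, 18 without a filter on low counts, 1 with the newer quasi-likelihood method, 1 at an adjusted p under 0.1 and 0 to 252 on leaving out a library, where 252 came without H15 and 2 without W32. The count of members called, 0, was 1 with DESeq2 and 0 to 1 on leaving out a library. Both times the gene was Acaa1b, and the cause was not tested. Without H15 its unadjusted p with edgeR rose from 0.000275 to 0.000555, so the lower adjusted p there did not come with a lower unadjusted p. The adjusted p of Acaa1b ran from 3.38e-05 to 0.608 over 17 alternatives and its log2 fold change from -0.72 to -0.56. Eif2s1 passed with DESeq2 (log2 fold change -0.44, adjusted p = 0.0156) and ran from -0.51 to -0.39 on leaving out a library. Acot1, at 0.033, was -0.048 with library totals alone, -0.0047 with limma-voom and -0.27 to 0.22 on leaving out a library. On leaving out a library Hsd17b4 ran from -0.10 to 0.0072 and Acaa1a from -0.16 to 0.058. Acaa1b, Acox2, Ehhadh, Acot3, Acot4 and Abcd3 kept their direction under every alternative run. Library totals alone moved the median of all genes to -0.079. With 4 libraries a group and 60.7 counts of Acot3 in its lowest library, counting error was small beside the spread between libraries for the thioesterases. No paired analysis was possible because the columns carry no replicate numbers, and none was run.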
